A study of Mus musculus with 6 samples.

Results

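The 7 genes described here are the 4 genes of the MiT family of transcription factors, *Mitf*, *Tfeb*, *Tfe3* and *Tfec*, and the 3 genes of the folliculin complex that controls where these factors reside in the cell, *Flcn*, *Fnip1* and *Fnip2*. They were chosen by gene name, with no rule on their values, from the 57180 genes listed for each library. Earlier results of these data were known when the choice was made. RNA was sequenced from osteoclast precursors (OCPs), macrophages from mouse bone marrow that have begun to turn into osteoclasts, with 3 cultures of wild-type C57BL/6 mice (WT) and 3 of *lincRNA-EPS* knockout mice (KO). All 6 cultures received M-CSF, a macrophage growth factor, at 40 ng/ml for 24 h and RANKL, the cytokine that starts osteoclast formation, at 40 ng/ml for a further 48 h. Every culture had thus received RANKL, and an unstimulated state was not analysed here. The KO mice were made by Shanghai Model Organisms Center. The age and sex of the mice behind these cultures and which mice gave which culture are not given in the sources used here. The series describes the replicates of a genotype as biologically independent.

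MiT factors are basic helix-loop-helix leucine zipper proteins that bind as dimers, with one another or with themselves, to E-box sequences such as CACGTG. TFEB and TFE3 are held in the cytoplasm when nutrients are plentiful, because the folliculin complex (FLCN with FNIP1 or FNIP2) acts on the RagC and RagD GTPases at the lysosome, which lets the kinase mTORC1 phosphorylate them, and once released they switch on lysosomal and autophagy genes through E-boxes of the CLEAR type. In osteoclasts MITF and TFE3 act with PU.1, the product of *Spi1*, on genes of bone resorption such as *Acp5* and *Ctsk*, and TFEC is a member of the family found mainly in macrophages and related cells. Since control of these factors is largely by phosphorylation and location, RNA levels do not show their activity.

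The libraries held 17757351 to 19998611 counts. The counts of lincRNA-EPS, listed as *Ttc39aos1*, were 20, 37 and 41 in the WT libraries and 0 in all 3 KO libraries, as the labels imply. No library was a repeat of another, since the counts of the most similar pair gave a chi-square of 3.58 per degree of freedom. In KO replicate 2 the most abundant gene was the ribosomal RNA gene *Rn18s-rs5*, with 2.71% of the counts, where in the other 5 libraries it was *Ftl1* or *Lyz2* with 1.36% to 1.48%. The libraries also differed in the GC content of the transcripts they favoured. Across the 13176 tested genes with a GC value, not independent of each other, the correlation of GC content with the log2 fold change of KO over WT was -0.51. Libraries of a single genotype differed in the same way, with a correlation of 0.50 for KO replicate 1 minus KO replicate 3 and of -0.41 for WT replicate 1 minus WT replicate 2. This bears on every gene below, so differences are given as measured and again after each library was corrected for GC content, a correction that brought the correlation to -0.0037. A true difference that follows GC content would be removed by it as well.

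The cells expressed macrophage and osteoclast-lineage genes. All 7 macrophage markers were detected in every library, with a summed level of 16478 to 17617 normalized counts (CPM, per TMM-scaled library total) in WT and 14852 to 17653 in KO. Most of this sum was *Lyz2*, whose libraries overlapped, and all 7 markers had a log2 fold change below 0, 5 of them with each KO library under each WT library (*Adgre1*, *Csf1r*, *Itgam*, *Mertk* and *Cd14*; 18.8% of all genes tested lay so). The count test DESeq2 called *Mertk* at an adjusted p under 0.01 and a fold change above 1.3 (1.22% of the genes that it gave an adjusted p were called). An unadjusted p under 0.05 was found for 4 of the 7 (13.2% of all genes tested, lower in KO). With the GC correction 6 of the 7 were lower, and 4 did not overlap (32.1% of all genes in either direction). Of the lower ones, 2 then had an adjusted p under 0.05 in edgeR's test (1.07% of all genes in either direction). All 10 osteoclast-lineage markers were detected too, at 5024 to 5501 CPM in WT and 6542 to 7081 in KO, so that the KO sums lay above the WT sums. *Mmp9*, *Ctsk* and *Acp5* made up most of this sum. Of the 10, 8 were higher and 2 lower in KO, 5 of the higher ones did not overlap (16.9% of all genes with KO higher), and *Tnfrsf11a*, *Nfatc1*, *Itgb3*, *Ocstamp* and *Mmp9* overlapped. DESeq2 called *Ctsk*, *Dcstamp* and *Oscar*. After the GC correction 9 were higher and 1 lower, and 7 did not overlap (32.1% of all genes in either direction). In edgeR's test 5 then had an adjusted p under 0.05 (1.07% of all genes). Of these, 1 passed the limits of 0.01 and a fold change above 1.3 (0.0223% of all genes). *Mitf* is also a main factor of pigment cells and mast cells, and those lineages left little RNA. The 6 pigment cell markers summed to 0.351 to 0.766 CPM in WT and 0.521 to 1.04 in KO, with *Tyrp1* and *Slc45a2* at 0 counts in all libraries. The 9 mast cell markers summed to 21.2 to 22.7 CPM in WT and 19.6 to 23.8 in KO, with *Tpsb2*, *Cma1* and *Mcpt4* at 0. The 10 neutrophil markers summed to 1256 to 1416 CPM in WT and 1681 to 2024 in KO, with *S100a8*, *S100a9* and *Ngp* as the larger part. Of the 9 tested, 7 were higher and 2 lower in KO, with 6 and 2 that did not overlap (16.9% and 18.8% of all genes), and the 2 lower were *Mpo* and *Elane*, the granule enzymes of early neutrophils. Once corrected, the libraries of these 2 overlapped and those of 7 higher genes did not (32.1% of all genes in either direction). Of the 7, 3 had an adjusted p under 0.05 in edgeR's test (1.07% of all genes). DESeq2 called 4 of the list, *Cxcr2*, *Ngp*, *S100a8* and *S100a9*. The 5 dendritic cell markers summed to 11.8 to 14.7 CPM in WT and 15.9 to 16.3 in KO, the 7 stromal and osteoblast markers to 24.1 to 32.5 and 21.5 to 30.1, the 6 erythroid markers to 0.501 to 0.735 and 0.208 to 0.575, and the 6 B and T cell markers to 3.34 to 3.86 and 4.38 to 4.60. In bulk RNA, fewer cells of a type and less RNA per cell cannot be told apart.

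All 7 genes passed the filter on low counts and were measured with 346 to 4438 counts in every library. None passed the limits for a difference between KO and WT OCPs, an adjusted p under 0.01 in edgeR's quasi-likelihood test with a fold change above 1.3, which 0.00745% of the 13428 genes tested passed. The same held for edgeR with the GC correction (0.0223% of all genes passed), for DESeq2 (1.22% of the genes that it gave an adjusted p) and for DESeq2 with the GC correction (3.15%). By direction, 3 of the 7 were higher in KO (*Mitf*, *Tfec* and *Fnip1*) and 4 were lower (*Tfeb*, *Tfe3*, *Flcn* and *Fnip2*). At an unadjusted p under 0.05 in edgeR's test there were 4 of the 7 (*Mitf*, *Tfeb*, *Tfe3* and *Flcn*), against 26.2% of all genes tested. The WT and KO libraries did not overlap for 5 of the 7, against 35.7% of all genes tested. An exact permutation test on 3 libraries a side stops at p = 0.1, so single genes were not tested that way.

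*Mitf* (ENSMUSG00000035158, chromosome 6 from 97807052 to 98021349, plus strand, in GRCm38) encodes the founding member of the family, mutations of which can give osteopetrosis in mice. Its level was 71.9, 61.4 and 70.5 CPM in WT replicates 1, 2 and 3 and 78.2, 76.7 and 87.8 CPM in KO replicates 1, 2 and 3. Each KO library was above each WT library, with KO replicate 3 highest and WT replicate 2 lowest. The mean was 67.9 ± 5.69 CPM in WT and 80.9 ± 6.02 in KO (n = 3 per genotype, SD), a log2 fold change of 0.25 (standard error, SE, 0.104, 95% interval 0.016 to 0.49, adjusted p = 0.175 in edgeR's test). After the GC correction the log2 fold change was 0.072 (95% interval -0.068 to 0.21, adjusted p = 0.487), and the libraries still did not overlap, with 70.5 to 73.3 CPM in WT and 74.0 to 78.0 in KO.

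*Tfeb* (ENSMUSG00000023990, chromosome 17 from 47737030 to 47792419, plus strand) encodes the factor best known for lysosome biogenesis. It had 28.9, 38.6 and 30.2 CPM in WT replicates 1, 2 and 3 and 26.7, 23.6 and 17.6 CPM in the KO replicates in the same order. The KO libraries were below the WT libraries, but KO replicate 1 was close to WT replicate 1, and the gap rested most on WT replicate 2 and KO replicate 3. The log2 fold change was -0.52 (SE 0.175, 95% interval -0.92 to -0.13, adjusted p = 0.149), the largest in size of the 7 genes, and it was -0.38 without WT replicate 2 and -0.37 without KO replicate 3. *Tfeb* also had the highest GC content of the 7, with 63.2% in its longest transcript. After the GC correction the WT libraries had 25.9, 27.5 and 26.4 CPM and the KO libraries 25.6, 25.0 and 31.2, so that the groups overlapped, and the log2 fold change was 0.030 (95% interval -0.19 to 0.25, adjusted p = 0.872).

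*Tfe3* (ENSMUSG00000000134, chromosome X from 7762560 to 7775202, plus strand) encodes a factor that can stand in for MITF in osteoclasts. It had 109, 138 and 114 CPM in WT replicates 1, 2 and 3 and 96.0, 98.9 and 98.2 CPM in KO replicates 1, 2 and 3. The KO libraries lay close together and below all WT libraries, among which WT replicate 2 stood highest. The log2 fold change was -0.30 (SE 0.108, 95% interval -0.55 to -0.056, adjusted p = 0.156) and -0.19 without WT replicate 2. After the GC correction it was -0.20 (95% interval -0.40 to -0.011, adjusted p = 0.173), with KO replicate 3 at 107.8 CPM just above WT replicate 1 at 107.6.

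*Tfec* (ENSMUSG00000029553, chromosome 6 from 16833373 to 16898441, minus strand), the family member found mainly in myeloid cells, had 47.0, 40.0 and 47.3 CPM in WT replicates 1, 2 and 3. In KO replicates 1, 2 and 3 it had 45.8, 46.1 and 60.2 CPM, so 2 of the 3 KO libraries fell within the WT range and KO replicate 3 stood above it. The log2 fold change was 0.18 (SE 0.134, 95% interval -0.12 to 0.49, adjusted p = 0.401), and it was 0.039 without KO replicate 3 and 0.11 without WT replicate 2. With the GC correction the direction turned, to -0.10 (95% interval -0.25 to 0.047, adjusted p = 0.354). All corrected KO libraries, at 44.9 to 46.6 CPM, were then below the WT libraries at 48.3 to 49.5.

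*Flcn* (ENSMUSG00000032633, chromosome 11 from 59791408 to 59810016, minus strand) encodes folliculin, the part of the complex that acts on RagC and RagD. Its level was 59.8, 66.4 and 60.6 CPM in WT replicates 1, 2 and 3 and 53.6, 44.2 and 40.5 CPM in KO replicates 1, 2 and 3. Every KO library was below every WT library, and the mean was 62.3 ± 3.60 CPM in WT and 46.1 ± 6.76 in KO (n = 3 per genotype, SD). The log2 fold change was -0.43 (SE 0.122, 95% interval -0.71 to -0.16, adjusted p = 0.147 in edgeR's test), and DESeq2 gave an adjusted p = 0.0369, the lowest of the 7 genes and above the limit of 0.01. After the GC correction the groups stayed apart, with 58.3 to 58.7 CPM in WT and 44.7 to 53.0 in KO. The corrected log2 fold change was -0.26 (95% interval -0.44 to -0.089, adjusted p = 0.0936).

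*Fnip1* (ENSMUSG00000035992, chromosome 11 from 54438199 to 54518235, plus strand) and *Fnip2* (ENSMUSG00000061175, chromosome 3 from 79455974 to 79567796, minus strand) encode the partners of folliculin. *Fnip1* had 81.4, 64.6 and 76.8 CPM in WT replicates 1, 2 and 3 and 78.2, 71.7 and 113 CPM in KO replicates 1, 2 and 3. Only KO replicate 3 was outside the WT range. The log2 fold change of 0.24 (SE 0.174, 95% interval -0.16 to 0.63, adjusted p = 0.388) was 0.013 without that library, 0.15 without WT replicate 2 and -0.094 after the GC correction (95% interval -0.28 to 0.091, adjusted p = 0.494). *Fnip2* had the most counts of the 7 genes, with 223, 219 and 216 CPM in the WT replicates and 207, 180 and 196 CPM in the KO replicates. Its WT libraries were nearly equal and all KO libraries were below them. The difference was small, with a log2 fold change of -0.18 (SE 0.0892, 95% interval -0.38 to 0.026, adjusted p = 0.234) that hardly moved with the GC correction (-0.18, 95% interval -0.33 to -0.027, adjusted p = 0.144).

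**Figure D1:**
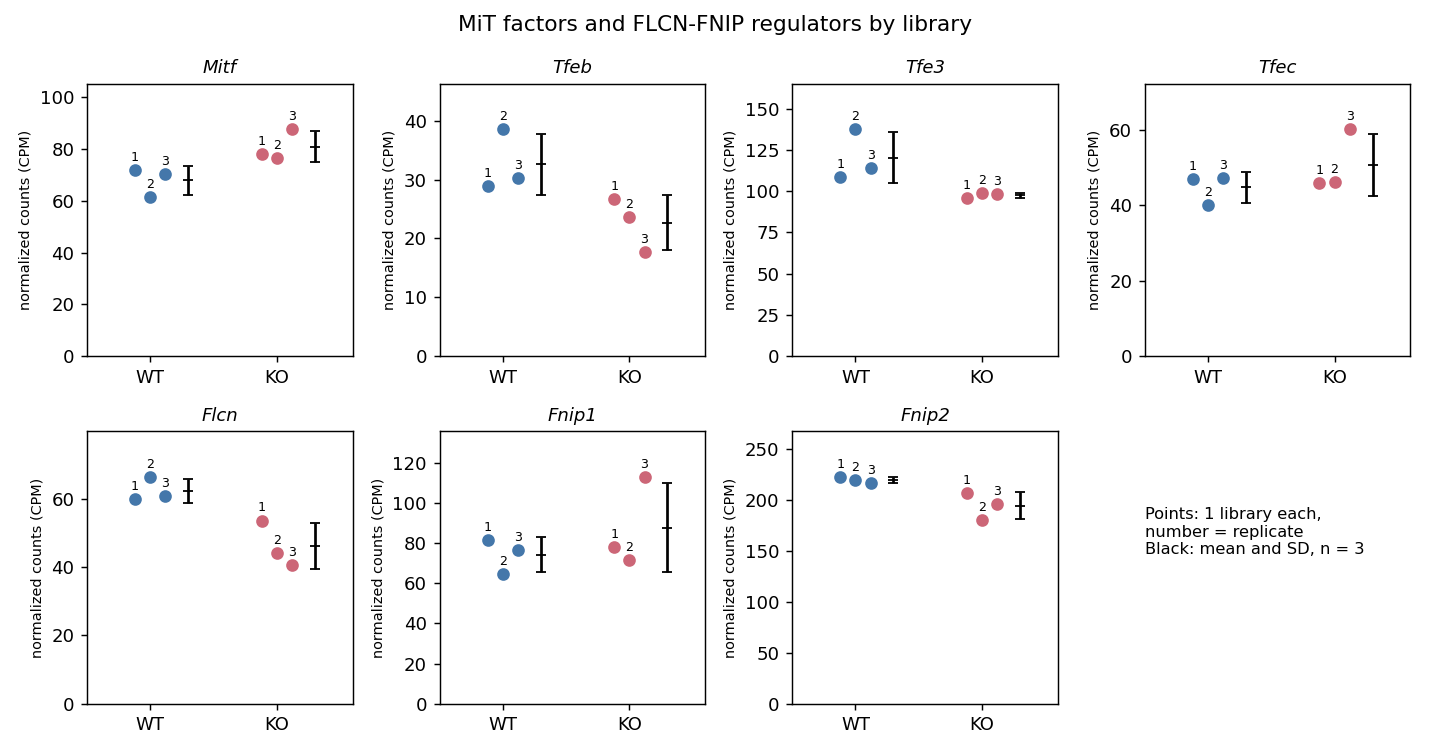
Normalized counts (CPM) of each of the 7 genes in the 3 WT (blue) and 3 KO (red) libraries, with the replicate number above each point and the mean and SD (n = 3) in black beside each group. The groups do not overlap for *Mitf*, *Tfeb*, *Tfe3*, *Flcn* and *Fnip2*, while for *Tfec* and *Fnip1* only KO replicate 3 lies above the WT libraries.

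Sorted by the GC content of their longest transcript, the 7 genes came close to the order of their fold changes. *Fnip1* (38.9%), *Tfec* (40.3%) and *Mitf* (43.4%) were the 3 with a positive log2 fold change, and *Fnip2* (49.2%), *Tfe3* (52.1%), *Flcn* (54.9%) and *Tfeb* (63.2%) followed with values that went from -0.18 to -0.52. Other genes of like GC content set the scale for this. The 919 tested genes with 35% to 40% GC had a median log2 fold change of 0.32, and the 2745 genes with 40% to 45% had 0.21, so *Fnip1* and *Tfec* sat below the median of their own range and *Mitf* just above it. The 3421 genes with 45% to 50% had a median of 0.050, above *Fnip2*. The 3319 genes with 50% to 55% had a median of -0.11, above *Tfe3* and *Flcn*. For the 452 genes with 60% to 70% the median was -0.46, near the value of *Tfeb*. The part of GC content in these differences was not tested beyond the corrected values. After the correction 2 of the 7 genes were higher and 5 lower in KO, and the libraries of 4 did not overlap (*Mitf*, *Tfec*, *Flcn* and *Fnip2*), against 32.1% of all genes tested.

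**Figure D2:**
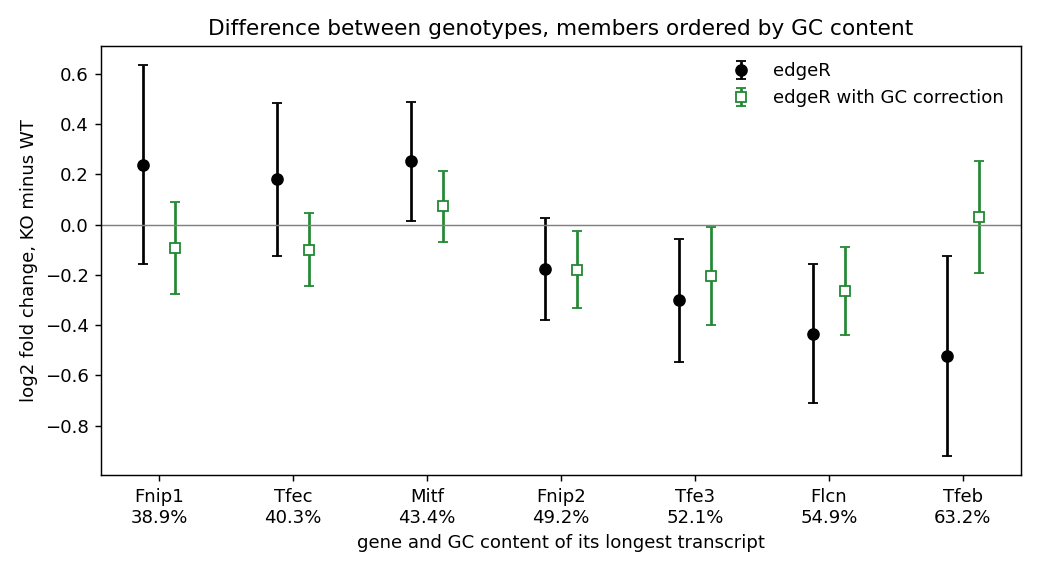
Log2 fold change of KO over WT for the 7 genes, ordered from left to right by the GC content of the longest transcript, from edgeR without (black circles) and with (green squares) the GC correction, with 95% confidence intervals. The uncorrected values go from 0.24 for *Fnip1* to -0.52 for *Tfeb*, and the corrected value of *Tfeb* is 0.030.

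**Figure D3:**
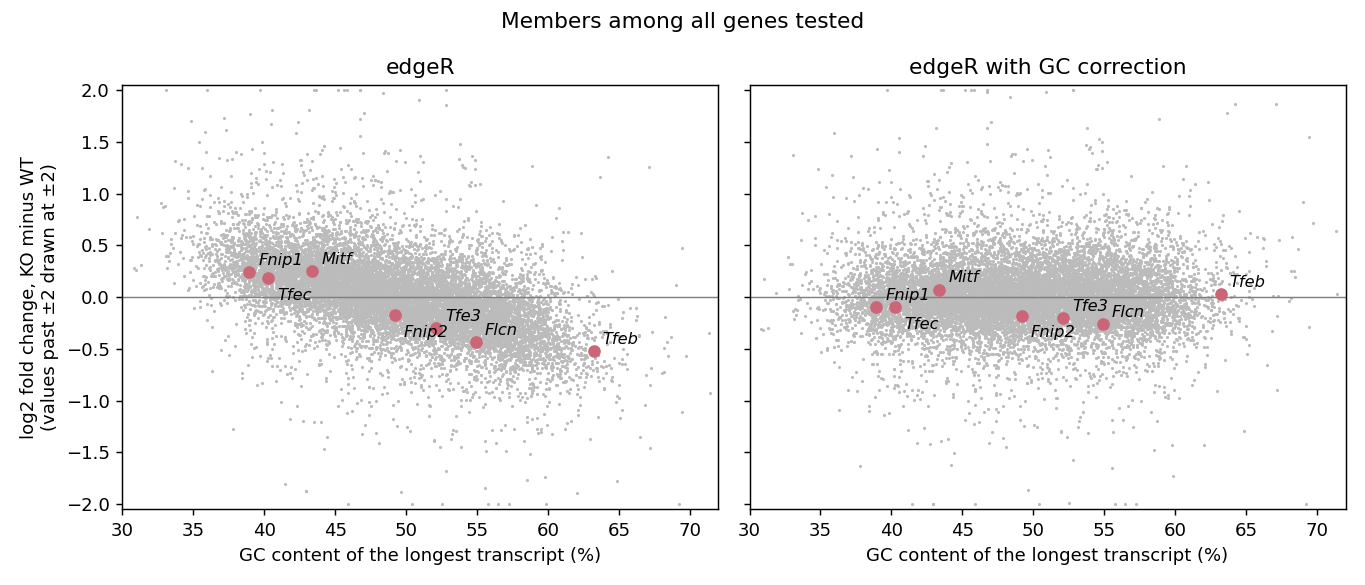
Log2 fold change of KO over WT against the GC content of the longest transcript in percent for all tested genes with a GC value (grey) and the 7 genes described here (red), without (left) and with (right) the GC correction. The grey cloud slopes down on the left, with a correlation of -0.51, while on the right the correlation is -0.0037. The red points on the left slope down as well, but not all lie at the middle of the cloud. *Tfe3* (-0.30) and *Flcn* (-0.43) are below the median of -0.11 for 50% to 55% GC. *Fnip2* (-0.18) is below the median of 0.050 for 45% to 50%.

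Divided by the length of the longest coding transcript, counts can be set side by side between genes. On this scale (CPM per kb) *Tfe3* was the most abundant of the 7 in WT OCPs, with 35.5 ± 4.55, followed by *Fnip2* with 30.1 ± 0.426, *Tfec* with 25.0 ± 2.30 and *Flcn* with 18.1 ± 1.05 (n = 3 per genotype, SD). *Mitf* with 13.9 ± 1.17, *Tfeb* with 13.9 ± 2.24 and *Fnip1* with 11.9 ± 1.39 came last. The WT libraries of each gene were apart from those of the next in this order down to *Mitf*, and *Mitf*, *Tfeb* and *Fnip1* overlapped with their neighbours. In KO OCPs the order was *Tfe3* (28.8 ± 0.449), *Tfec* (28.4 ± 4.59), *Fnip2* (26.6 ± 1.81), *Mitf* (16.6 ± 1.23), *Fnip1* (14.02 ± 3.56), *Flcn* (13.4 ± 1.97) and *Tfeb* (9.67 ± 1.98). The 3 genes at the top overlapped from each to the next, and so did *Mitf*, *Fnip1* and *Flcn*. *Fnip2* and *Mitf* were apart, at 24.7 to 28.3 and 15.7 to 18.0, as were *Flcn* and *Tfeb*, at 11.8 to 15.6 and 7.52 to 11.4. The scale depends on the length that is used, since the counts are given per gene and not per transcript. With all annotated exons of a gene merged, *Fnip2* was first (26.2 in WT and 23.2 in KO), *Tfe3* had 13.0 in WT, and *Tfeb* was last in both genotypes (5.74 and 3.996), since the table gives no counts for single transcripts.

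The summed level per kb of the 4 MiT factors was 88.4 ± 3.40 in WT and 83.4 ± 4.09 in KO (n = 3 per genotype, SD), with overlapping libraries. What each factor took of this sum differed more. *Mitf* took 17.2%, 13.7% and 16.5% in WT replicates 1, 2 and 3 and 19.7%, 19.5% and 20.4% in KO replicates 1, 2 and 3. *Tfec* took 30.8%, 24.3% and 30.2% in WT and 31.5%, 31.9% and 38.2% in KO. Both shares were higher in each KO library than in each WT library. *Tfe3* went the other way, with 37.6%, 44.2% and 38.5% in WT and 34.8%, 36.1% and 32.9% in KO. *Tfeb* took 14.5%, 17.9% and 14.7% in WT and 14.02%, 12.5% and 8.53% in KO, with WT replicate 1 and KO replicate 1 nearly equal. Shares of 1 sum are tied to each other, and the low-GC factors *Mitf* and *Tfec* took more in KO where the high-GC factors *Tfe3* and *Tfeb* took less. From GC-corrected levels the mean share was 16.8% in WT and 18.9% in KO for *Mitf*, 31.3% and 31.0% for *Tfec*, 39.0% and 36.1% for *Tfe3* and 12.9% and 14.1% for *Tfeb*. On that scale *Tfe3* remained lower in each KO library, *Tfeb* was higher in each, and *Mitf* and *Tfec* overlapped. The shares also depend on the length used. With merged exons and no GC correction, the mean share was 29.1% in WT and 35.6% in KO for *Mitf*, 34.4% and 28.8% for *Tfe3*, 21.3% and 24.6% for *Tfec* and 15.2% and 10.98% for *Tfeb*, so that *Mitf* had the largest mean share in KO on this scale and *Tfe3* on the other.

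**Figure D4:**
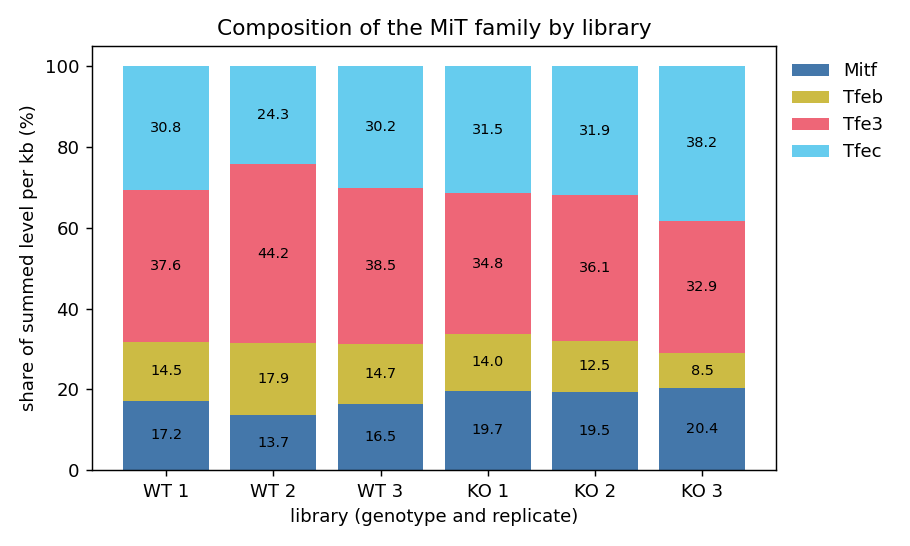
Share in percent of each of the 4 MiT factors in their summed level per kb of longest coding transcript, 1 bar for each library, without GC correction. *Tfe3* and *Tfec* together take the larger part of every bar, and the *Mitf* share is 13.7% to 17.2% in WT and 19.5% to 20.4% in KO, where lengths of merged exons give a mean of 29.1% and 35.6%.

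Over the 6 libraries, the genes whose log2 levels were most like those of a factor were *Sinhcaf*, *Ndufb8* and *Ap1s3* for *Mitf* (Pearson's r from 0.995 to 0.997), *Ptprs*, *Lmf2* and *Cmip* for *Tfeb* (all 0.999), *Qpctl*, *Zxda* and *Sirpa* for *Tfe3* (0.993 to 0.996) and *Ptbp3*, *P2ry10b* and *C1galt1* for *Tfec* (0.997 to 0.999). *Zxda* had 11 to 42 counts in WT libraries and 0 in each KO library. These are the highest of 13428 correlations over 6 points that share genotype, depth and the GC trend, and r was above 0.9 with 10.9% of all genes tested for *Mitf*, 16.7% for *Tfeb*, 3.29% for *Tfe3* and 10.3% for *Tfec*. They are given as a description.

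The promoter windows of the 4 MiT factors themselves did not hold the E-box CACGTG. RefSeq's promoter sequences (GRCm38.p6, 250 bases before to 50 after a start) gave 12 promoters for the 7 genes, and CACGTG, which reads the same on both strands, was in 1 of them, that of *Fnip1*. Across all 32851 promoters 7.15% held CACGTG and 3.77% held TCATGTG, searched on both strands, the M-box form that MITF also binds. The stretch of the *Fnip1* promoter with its E-box in capitals, on chr11:54438044-54438169, plus strand, is shown because *Fnip1* is the 1 gene of the 7 with such a match.
Fnip1: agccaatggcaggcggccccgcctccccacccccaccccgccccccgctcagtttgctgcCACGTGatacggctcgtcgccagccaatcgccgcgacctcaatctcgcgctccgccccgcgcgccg

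The lysosomal genes taken as targets of TFEB and TFE3 are known as a group for this E-box near their starts, so its share among them restates how such genes are defined and is no finding. Of the 50 genes of the CLEAR list, 39 matched to 45 promoters, and 42.2% of these promoters held CACGTG, in 19 of the 39 genes. In 10 of the 19 promoters it occurred at least 2 times. *Lamp1*, a main protein of the lysosomal membrane, is shown for its 4 matches. *Mcoln1*, the lysosomal calcium channel that feeds back on TFEB, and *Slc36a1*, an amino acid transporter of the lysosome, are shown with 2 each, from 12 bases before the first CACGTG to 12 after the last and with each CACGTG in capitals. They lie on chr8:13159088-13159163 and chr8:3500436-3500491 and chr11:55204297-55204354, all on the plus strand.
Lamp1: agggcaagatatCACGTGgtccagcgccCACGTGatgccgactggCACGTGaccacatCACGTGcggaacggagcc
Mcoln1: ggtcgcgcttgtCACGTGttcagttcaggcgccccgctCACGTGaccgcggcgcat
Slc36a1: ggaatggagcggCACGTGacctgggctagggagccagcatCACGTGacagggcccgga

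The RNA of the CLEAR list pointed in no common direction. Of the 48 genes tested, 17 were higher and 31 lower in KO, with a median log2 fold change of -0.082 where the median of all genes tested was 0.0091. After the GC correction 24 were higher and 24 lower, with a median of -0.0048 (all genes -0.0057). The libraries of 10 higher and 14 lower genes did not overlap (16.9% and 18.8% of all genes tested). When corrected, those of 10 higher and 12 lower genes did not (32.1% of all genes in either direction). With edgeR 0 of the 48 passed the limits (0.00745% of all genes did), and 8 higher and 9 lower had an unadjusted p under 0.05 (13.0% and 13.2% of all genes). DESeq2 called 1 of the 48, where it called 1.22% over all genes with an adjusted p. It was *Atp6v1d*, which encodes a subunit of the proton pump V-ATPase, but this gene is labelled in the study's heat map of these same libraries and is no independent evidence. The 19 genes with a CACGTG in a promoter had 5 higher and 14 lower, a median of -0.13 and a median GC content of 53.6%, and after the GC correction 9 higher and 10 lower with a median of -0.025.

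Single lysosomal genes lay further out. *Slc36a1* had 65.8, 76.5 and 67.8 CPM in WT replicates 1, 2 and 3 and 55.8, 50.7 and 43.5 CPM in the KO replicates. Its groups were apart with and without the GC correction, and the log2 fold change was -0.49 (SE 0.119, adjusted p = 0.147) or -0.35 when corrected (adjusted p = 0.0545). *Atp6v0a1*, a V-ATPase subunit of the membrane sector, had 203, 256 and 203 CPM in WT and 174, 160 and 143 CPM in KO. It too was lower in each KO library, with a log2 fold change of -0.48 (adjusted p = 0.147) and -0.55 when corrected (adjusted p = 0.0626). On the higher side, *Atp6v1d* had 159, 130 and 160 CPM in WT and 197, 234 and 269 CPM in KO, a log2 fold change of 0.64 (adjusted p = 0.147) and 0.43 when corrected (adjusted p = 0.0437). *Atp6v1h*, another V-ATPase subunit, had a log2 fold change of 0.43 that was 0.076 when corrected, with a GC content of 37.6%. *Lamp1* had 1365 ± 42.5 CPM in WT and 1291 ± 119.96 in KO (n = 3 per genotype, SD), and *Mcoln1* 51.2 ± 0.179 and 46.9 ± 7.19. The libraries of both overlapped, and their log2 fold changes were -0.080 and -0.13, or 0.0014 and -0.092 when corrected.

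A further list holds genes that MITF and TFE3 are known to drive in osteoclasts, and shares *Gpnmb* and *Clcn7* with the CLEAR list. Of 10 genes tested, 6 were higher and 4 lower in KO, and all 6 higher genes had libraries that did not overlap, as had 2 of the lower ones (16.9% of all genes tested did not overlap with KO higher, and 18.8% with KO lower). The median log2 fold change was 0.32, and 0.37 after the GC correction with 8 higher and 2 lower. With edgeR 0 passed the limits, 5 higher and 1 lower had an unadjusted p under 0.05 (13.0% and 13.2% of all genes), and after the GC correction 4 had an adjusted p under 0.05 (*Acp5*, *Ctsk*, *Oscar* and *Atp6v0d2*), where 1.07% of all genes did. DESeq2 called 3, *Atp6v0d2*, *Ctsk* and *Oscar* (1.22% over all genes with an adjusted p). Those 3 are among the genes that the study's heat map singles out from these libraries, so the list is not independent evidence of its direction.

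*Ctsk*, cathepsin K, had 976, 875 and 975 CPM in WT replicates 1, 2 and 3 and 1472, 1579 and 1769 CPM in KO replicates 1, 2 and 3. The gap was as wide after the GC correction, with a log2 fold change of 0.77 before (SE 0.110, adjusted p = 0.102) and 0.76 after it (adjusted p = 0.0181). *Acp5*, the tartrate-resistant acid phosphatase by which osteoclasts are stained, had 998, 1005 and 1039 CPM in WT and 1410, 1348 and 1200 CPM in KO (log2 fold change 0.38, SE 0.101, adjusted p = 0.147). With the GC correction its log2 fold change was 0.59 (adjusted p = 0.0254). *Oscar*, a receptor that supports osteoclast formation, had 18.2, 21.2 and 19.1 CPM in WT and 29.2, 28.9 and 36.5 CPM in KO, with log2 fold changes of 0.70 and, when corrected, 0.73 (adjusted p = 0.136 and 0.0388). *Atp6v0d2*, the V-ATPase subunit of osteoclasts and macrophages, had 228, 177 and 223 CPM in WT and 338.5, 353 and 461 CPM in KO, with log2 fold changes of 0.88 and 0.64 (adjusted p = 0.136 and 0.0121). For all 4 genes each KO library was above each WT library. The summed osteoclast-lineage and neutrophil markers were higher in the same KO libraries and 5 of the 7 macrophage markers lower in each of them, and their part in these differences was not tested. *Acp5*, *Ctsk* and *Oscar* belong to the osteoclast-lineage marker list themselves.

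Not all members of the list were of this kind. *Plekhm1*, which guides lysosomes to the ruffled border, had 141, 171 and 149 CPM in WT and 129.6, 111 and 87.5 CPM in KO. Its log2 fold change was -0.49 (SE 0.147, adjusted p = 0.147) and -0.29 when corrected (adjusted p = 0.0777). *Gpnmb*, a membrane glycoprotein much used as a readout of MITF and TFE3, was lower in each KO library, with 11273 ± 823.5 CPM in WT and 9786 ± 518.7 in KO (n = 3 per genotype, SD), a log2 fold change of -0.20 (adjusted p = 0.319) and -0.19 when corrected. *Clcn7*, the chloride exchanger of the resorbing membrane, had 420.3 ± 37.8 and 396.8 ± 36.0 CPM, with overlapping libraries and a log2 fold change of -0.083 that was 0.080 when corrected. In the promoters of the list, 7.69% of 13 held CACGTG and 15.4% held TCATGTG. The match in *Acp5* is shown, on chr9:22130666-22130705, minus strand, with the reverse complement of TCATGTG in capitals.
Acp5: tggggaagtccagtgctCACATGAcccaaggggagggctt

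The next list holds genes whose proteins act with or upstream of MITF in osteoclasts. Of 9 tested, 2 were higher and 7 lower in KO, with a median log2 fold change of -0.18 that was -0.062 without KO replicate 3 and -0.10 without WT replicate 2. Once corrected, 4 were higher and 5 lower, with a median of -0.060, and 2 in each direction did not overlap (32.1% of all genes in either direction). With edgeR or DESeq2 0 passed the limits, and 3 lower genes had an unadjusted p under 0.05 (13.2% of all genes tested). *Nfatc1*, the main factor of osteoclast formation, had 267, 324 and 269 CPM in WT and 332, 282 and 266 CPM in KO, with overlapping libraries and a log2 fold change of 0.033 (adjusted p = 0.872), or 0.17 when corrected (adjusted p = 0.200). *Fos*, which acts before it, had a log2 fold change of 0.10 (adjusted p = 0.566), or 0.19 when corrected (adjusted p = 0.158) with each corrected KO library above each WT library. The coactivators *Ep300* and *Crebbp* had log2 fold changes of -0.49 and -0.34 (adjusted p = 0.147 and 0.188), and -0.43 and -0.26 when corrected. Of these, *Ep300* was lower in each KO library, with 125, 149 and 131 CPM in WT and 121, 82.2 and 85.3 CPM in KO.

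Upstream of the factors, the lysosomal platform on which mTORC1 meets them was mixed. In the Rag, Ragulator and mTORC1 list 11 of 19 genes were higher and 8 lower, with a median log2 fold change of 0.037 (0.0033 after the GC correction, -0.022 without WT replicate 2). With edgeR or DESeq2 0 passed the limits, and 3 higher and 4 lower had an unadjusted p under 0.05 (13.0% and 13.2% of all genes tested). *Mtor*, the kinase itself, had 75.7, 103 and 82.1 CPM in WT and 75.2, 60.5 and 52.2 CPM in KO, with KO replicate 1 just below WT replicate 1 (log2 fold change -0.47, SE 0.161, adjusted p = 0.151, and -0.32 when corrected). *Tsc2*, an inhibitor of mTORC1, had a log2 fold change of -0.43 (adjusted p = 0.152) and -0.27 when corrected. The small Ragulator subunits *Lamtor3* and *Lamtor5* had 0.39 and 0.34 (adjusted p = 0.147 and 0.180), and 0.18 and 0.36 when corrected. *Lamtor3* was higher in each KO library, with 72.8, 66.2 and 79.6 CPM in WT and 84.5, 95.5 and 106 CPM in KO.

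The GATOR complexes and amino acid sensors pass nutrient signals to the Rag proteins. Of 16 listed genes 15 were tested, 4 higher and 11 lower, with a median log2 fold change of -0.15 that was -0.020 after the GC correction, and 0 passed the limits with edgeR or DESeq2. *Wdr24*, of the GATOR2 complex, was lower in each KO library, with a log2 fold change of -0.51 (adjusted p = 0.163) and of -0.30 when corrected, where its libraries overlapped. *Seh1l* and *Mios*, also of GATOR2, had 0.25 and 0.26 (adjusted p = 0.171 and 0.304). After the correction these were 0.034 and 0.096. Of the 15 genes, 1 higher and 3 lower had an unadjusted p under 0.05, where 13.0% and 13.2% of all genes tested did.

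Kinases, calcineurin subunits and 14-3-3 proteins set the phosphorylation and retention of the factors. Of 23 genes tested 14 were higher and 9 lower, with a median of 0.058 (0.023 after the GC correction), 4 in each direction had an unadjusted p under 0.05 (13.0% and 13.2% of all genes tested), and 0 passed the limits with edgeR or DESeq2. *Prkcb*, a protein kinase C that phosphorylates TFEB in osteoclasts, had 73.5, 84.3 and 79.9 CPM in WT and 63.6, 50.8 and 57.1 CPM in KO. It was lower in each KO library on both scales, with a log2 fold change of -0.47 (SE 0.112, adjusted p = 0.147) and -0.35 when corrected (adjusted p = 0.0808). *Akt1* had -0.36 (adjusted p = 0.153), and 0.028 when corrected, with a GC content of 59.7%. The 14-3-3 genes *Ywhaz* and *Ywhae* had 0.36 and 0.25 (adjusted p = 0.153 and 0.175), and 0.24 and 0.082 when corrected.

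Autophagy genes, many of them also under TFEB control, were spread about 0. Of 35 tested, 16 were higher and 19 lower, with a median of -0.026 (-0.064 after the GC correction), 5 higher and 8 lower at an unadjusted p under 0.05 (13.0% and 13.2% of all genes tested), and 0 past the limits with edgeR or DESeq2. *Atg10*, an E2-like enzyme, had 5.97, 5.64 and 5.88 CPM in WT and 7.08, 8.63 and 9.67 CPM in KO. Its log2 fold change was 0.54 (SE 0.157, adjusted p = 0.147) and 0.26 when corrected (adjusted p = 0.232). *Atg3* had 0.32 (adjusted p = 0.152), and 0.027 when corrected. *Ambra1* and *Atg4d* were lower in each KO library on both scales, with -0.44 and -0.37 (adjusted p = 0.147 each) and -0.28 and -0.20 when corrected (adjusted p = 0.0872 and 0.165).

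**Figure D5:**
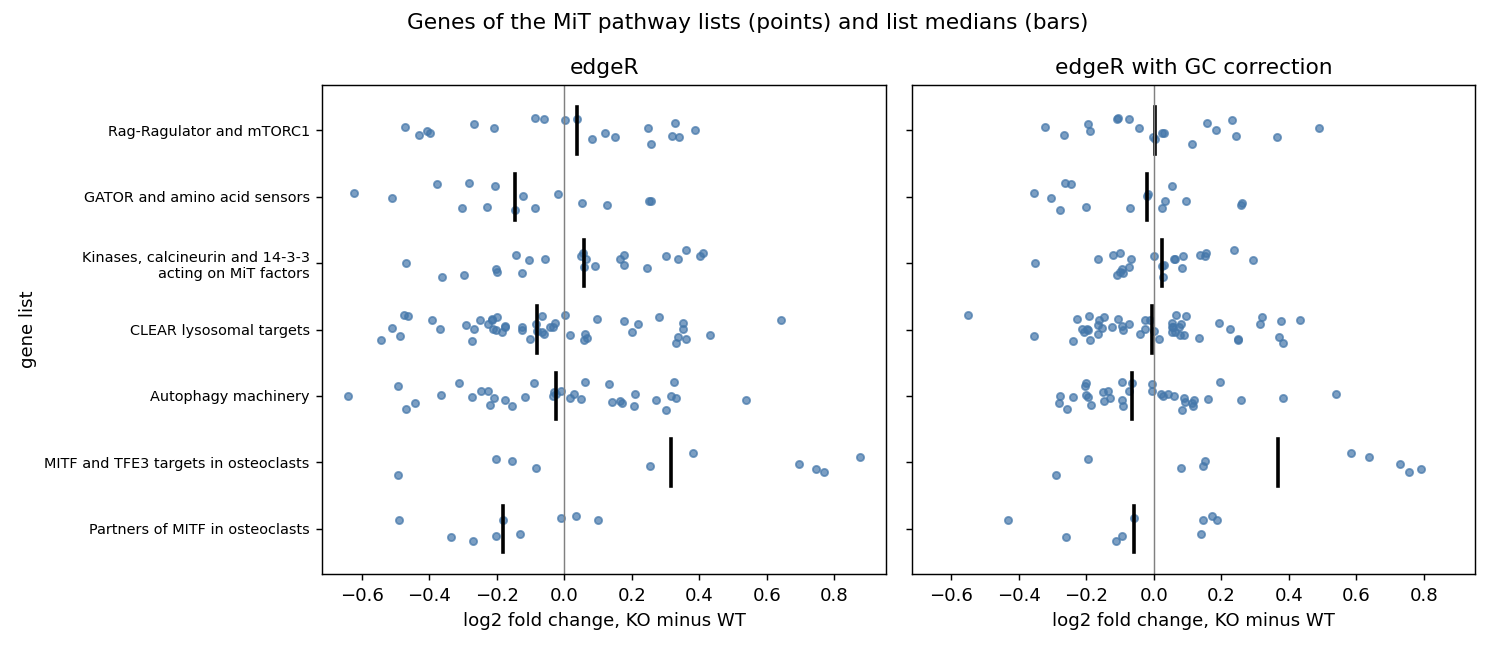
Log2 fold change of KO over WT for each tested gene (points) of the 7 pathway lists, with the median of each list as a black bar, from edgeR without (left) and with (right) the GC correction. The medians lie between -0.18 and 0.058 on the left for all lists but the MITF and TFE3 targets in osteoclasts, whose median is 0.32 on the left and 0.37 on the right.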

How the data were processed

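RNA from 3 WT and 3 KO cultures was sequenced from stranded mRNA libraries. The authors deposited a table of estimated counts per gene, not normalized and in part not whole (25.14% to 26.59% of the detected genes of a library). Per the labels, the submitters' processing notes name fastp, HISAT2, StringTie, RSEM and the build GRCm39, without roles or versions. The strand setting of the counting is not given in the sources used here. The mean columns and pathway terms of the table were not used.

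Estimated counts were rounded. R 4.3.3 was used with edgeR 4.0.16 (filterByExpr, TMM, glmQLFit with legacy = FALSE, glmQLFTest, Benjamini-Hochberg over all 13428 genes tested), and CPM are TMM-scaled. Genes were called at an adjusted p under 0.01 and a fold change above 1.3, where the study's volcano plot draws its lines. A legend of the study writes 1.3 as a log2 fold change, a limit that none of the 7 genes reached. GC content, lengths and positions come from GENCODE release M21 on GRCm38, in which 51884 identifiers have a transcript. For the GC correction, the deviation of each library from the mean of all was smoothed against GC content (natural spline, 5 df) and used as an offset. None of the 7 genes shares exonic bases with another annotated gene. The alternatives were DESeq2 1.42.0, limma-voom (limma 3.58.1), edgeR's legacy test, other scalings and filters, a block for the replicate number, omission of single libraries, and lengths of merged exons. GC-corrected levels and shares were added after the data were seen. Fits were also run on simulated counts, which had no GC trend and changes larger than those of the 7 genes. Those runs do not bear on the GC correction or on changes as small as the ones described here.

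The 7 genes, the lists and the tests were chosen with earlier results of these data known. The text names all 7 genes, for each pathway list the 2 genes on each side with the smallest unadjusted p, and for each factor the 3 genes most correlated over the libraries. For 1 list, 1 gene that this rule names is not reported here. *Acp5*, *Oscar*, *Lamp1*, *Mcoln1* and *Clcn7* were named after their values or promoters were seen. Of the listed names 3 are other symbols or not in the table. With 3 libraries per genotype, the p-values set the difference between genotypes against the spread between these cultures, estimated in part across all genes. Which mice gave which culture is not given, so this spread is not known to be that between animals.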

Additional observations from a re-analysis of the deposited data

How the results depend on the processing

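None of the 7 genes passed the limits under any alternative run. *Mitf*, *Tfe3*, *Flcn* and *Fnip2* kept their direction under all 17 alternatives run for each, with log2 fold changes from 0.072 to 0.29, -0.37 to -0.19, -0.55 to -0.26 and -0.22 to -0.13. The direction of *Tfeb*, *Tfec* and *Fnip1* was reversed under the GC correction (0.030, -0.0998 and -0.0937), with it and the replicate block together (0.025, -0.0999 and -0.0981) and with it in DESeq2 (0.026, -0.0992 and -0.0927), and was kept under their other 14. Leaving out each library in turn gave 0.18 to 0.29 for *Mitf*, -0.66 to -0.37 for *Tfeb*, -0.37 to -0.19 for *Tfe3*, 0.039 to 0.25 for *Tfec*, -0.55 to -0.35 for *Flcn*, 0.013 to 0.36 for *Fnip1* and -0.22 to -0.13 for *Fnip2*. The number of genes called among all tested was 1, but 126 with DESeq2, 3 with the GC correction, 341 with both, and 0 to 2 with a library left out, being 0 without WT replicate 2, WT replicate 3 or KO replicate 2 and 2 without KO replicate 1. In the CLEAR list DESeq2 called 1 gene and, with the GC correction, 2 (*Atp6v0a1* and *Atp6v1d*). In the list of MITF and TFE3 targets it called 3 and 4 (with *Acp5*), where edgeR called 0. The cause was not tested. With a library left out, the list median ranged from -0.24 to -0.062 for the partners, -0.19 to -0.095 for GATOR, -0.11 to -0.054 for CLEAR, -0.053 to -0.0080 for autophagy, 0.024 to 0.097 for the kinase list and 0.28 to 0.34 for the MITF and TFE3 targets, and that of the Rag and mTORC1 list, 0.037, turned to -0.022 without WT replicate 2. Same-numbered WT and KO libraries did not deviate together (correlations of -0.20, 0.065 and 0.15 of their deviations from the group means), so the numbers are not taken as pairs, and with the replicate number as a block 1 gene and 0 of the 7 were called. With lengths of merged exons, the mean level per kb over all libraries was 12.01 for *Mitf*, 4.87 for *Tfeb*, 11.8 for *Tfe3*, 8.53 for *Tfec*, 12.5 for *Flcn* and 24.7 for *Fnip2*, where the longest coding transcript gave 15.2, 11.8, 32.2, 26.7, 15.8 and 28.3, and the share in the sum of the 4 factors was 32.4% for *Mitf*, 31.6% for *Tfe3* and 23.0% for *Tfec*, where it had been 17.8%, 37.3% and 31.2%. With 3 libraries per genotype and 346 to 4438 counts per gene and library, differences smaller than the intervals given could not be resolved.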

Other observations

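When the 48 tested genes of the CLEAR list were sorted by what their proteins do, a sorting made after their values were seen and given without a test, the V-ATPase subunit genes had a positive median and the other 3 groups a negative one. The 19 acid hydrolases and saposins, the enzymes and cofactors that digest the contents of the lysosome, had 4 genes higher and 15 lower in KO, with a median log2 fold change of -0.19 and a median GC content of 54.5%. After the GC correction they had 8 higher and 11 lower, with a median of -0.025. *Psap*, the precursor of the saposins, had the most counts of the group, with 10816 ± 814.5 CPM in WT and 8380 ± 615.9 in KO (n = 3 per genotype, SD), a log2 fold change of -0.37 that was -0.20 when corrected. The 12 V-ATPase subunit genes had 9 higher and 3 lower, with a median of 0.24, and 11 higher and 1 lower with a median of 0.16 when corrected. The 1 lower in both was *Atp6v0a1*. The other 10 membrane proteins had 2 higher and 8 lower with a median of -0.10 (-0.13 when corrected), and the 7 autophagy and tethering proteins 2 higher and 5 lower with a median of -0.21 (-0.094 when corrected).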
